A study of Drosophila melanogaster and Drosophila melanogaster x Drosophila simulans and Drosophila simulans with 6 samples.

Results

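The genes described here encode the contractile machinery of muscle, namely myosin, actin, tropomyosin, troponin and titin-like proteins, Z-disc components and calcium-handling proteins. The set consists of 34 D. melanogaster identifiers, chosen by function with values of the comparison between hybrids and D. melanogaster known. Of these, 32 are rows of the deposited table. Dmel_CG3220 is a RefSeq synonym of Mlp60A (Dmel_CG42309), and Dmel_CG33715 is an older name of Msp300 (Dmel_CG42768), which is also in the set under its present name. The set therefore holds 33 distinct genes of the 13973 D. melanogaster genes in the table. Because the members were selected on this comparison, their values in it are given as a description without a test.

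Polyadenylated RNA of ovaries was sequenced in 6 libraries, 2 per group. The D. melanogaster group was the Hmr2 line, which carries In(1)w[m4], In(1)AB and y[2] Hmr[2]. The D. simulans group was the line w501. The hybrids were F1 daughters of Hmr2 females and w501 males, so that they also carry the Hmr2 X chromosome, with both inversions, and a single D. melanogaster allele of each gene. They were reared at 20 °C and aged from 3 to 6 days, and ovaries were used only when several ovarioles held egg chambers. The Hmr2 line is a rescue line and both hybrid and parental D. melanogaster libraries carry its X chromosome, so no wild-type D. melanogaster ovary enters the comparison. The study's methods call the replicates biological, but do not say whether they came from separate crosses.

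In the fly ovary, muscle is not part of the egg chamber. Each ovariole is wrapped in a thin epithelial sheath with striated muscle cells, the whole ovary lies in a contractile peritoneal sheath, and the oviducts have muscle of their own. Drosophila muscles share most sarcomere genes but differ in the paralogue used for some proteins. Larval, abdominal and visceral muscles use the actins Act57B and Act87E and the troponin C genes TpnC47D and TpnC73F, tubular leg and jump muscles use Act79B and TpnC41C, and the fibrillar flight muscle uses Act88F, TpnC4 and flightin (fln). These 3 classes are named sheath-type, tubular and flight below. Each library thus carries a record of which muscle was dissected with the ovary.

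The libraries held between 12981002 and 22363396 estimated counts. D. melanogaster genes took 97.0% and 97.3% of the counts of the D. melanogaster libraries and 45.1% and 47.7% of those of the hybrids. They also took 2.61% and 2.65% of the counts of the D. simulans libraries, which hold no D. melanogaster RNA. For each member this wrongly assigned signal is given below as its mean CPM in the D. simulans libraries, in percent of the higher of its means in D. melanogaster and in hybrids. Where the D. melanogaster mean is the higher, the percent of the hybrid level is larger. For SERCA the means per library total were 85.1 CPM in D. simulans and 315 CPM in hybrids.

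The muscle members held a larger share of the D. melanogaster reads in hybrid ovaries than in D. melanogaster ovaries. Summed over the 33 genes they had 2518 and 2458 CPM (counts scaled to 1000000 counts of D. melanogaster genes) in the D. melanogaster libraries, against 4809 and 4558 in the hybrids. Sums over a list, here and below, are without the TMM scaling that the CPM of single genes carry, and sums and single genes are not to be compared. Per gene, 29 of the 33 passed the filter on low counts, and their median log2 fold change (hybrid over D. melanogaster) was 1.24, or 2.36-fold, beside 0.00 over all 8202 genes tested. The 4 genes that did not pass are Act79B, TpnC41C, Act88F and fln, described below. The fold change was above 0 for 26 of the 29 and ranged from -5.93 (TpnC4) to 2.29 (Mlc2). In bulk RNA, more or fewer cells of a type cannot be told apart from more or less RNA per cell.

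A call required a change of at least 2-fold and an adjusted p-value (Benjamini-Hochberg) under 0.05 in edgeR's quasi-likelihood test. By that rule 16 members were called higher, where 2.99% of all tested genes were, and 1 was called lower, where 10.3% were. Both hybrid libraries lay above both D. melanogaster libraries for 24 members (36.6% of all tested genes) and below them for 2 members, Chd64 and TpnC4 (37.2% of all tested genes). These counts describe how the set was composed and carry no test. Without D. melanogaster replicate 2 the number called higher was 11, and without D. melanogaster replicate 1 it was 19. These values are relative to the other D. melanogaster genes of the library. When counts were instead scaled to the library total over both species, the median of all genes shifted by -0.92 on the log2 scale and the median of the members was 0.32, with 2 members called higher.

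**Figure D1:**
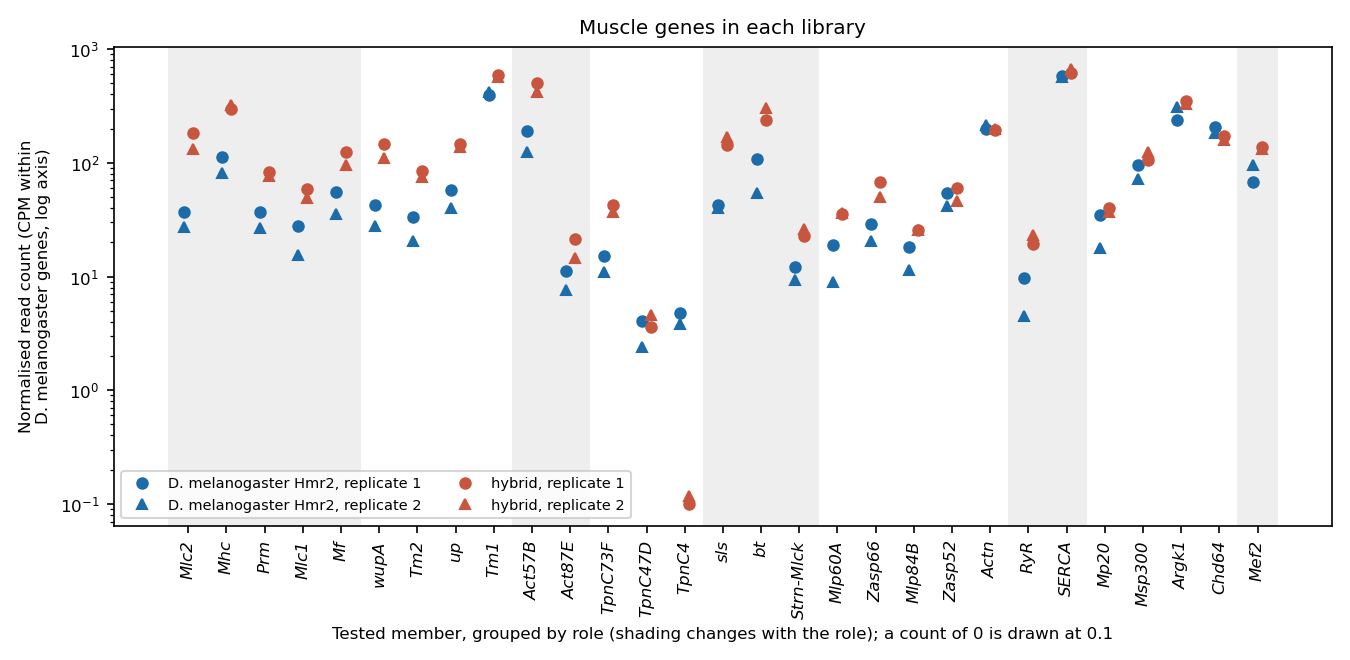
Normalised read count (CPM within the D. melanogaster genes, log axis) of the 29 tested members in the 4 libraries with D. melanogaster genes. Members are grouped by role, circles are replicate 1 and triangles replicate 2. Both hybrid libraries are above both D. melanogaster libraries for 24 members, and TpnC4 is at or near 0 in hybrids.

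Other RNA in the libraries moved in the same comparison. The summed level of the germ cell markers was 3627 and 4077 CPM in D. melanogaster and 3104 and 3060 in hybrids. Of 8 tested genes, 3 were called lower (orb, grk and aub). The other 5 were not called, with log2 fold changes of 0.08 (bcd), 0.01 (vas), -0.16 (osk), -0.40 (AGO3) and -0.77 (piwi). The follicle cell markers summed to 7483 and 6340 CPM against 1983 and 1518. Of these, 7 of 8 tested were called lower, the 6 largest decreases being those of tj, Yp2, Yp3, Yp1, Vm26Aa and ct. The chorion genes of late follicle cells summed to 9419 and 4632 CPM against 1021 and 2693, and 4 of 6 (Cp19, Cp36, Cp38 and Cp15) were called lower, Cp38 with an adjusted p of 0.058 in DESeq2. D. melanogaster replicate 1 thus had more chorion RNA than replicate 2. Of the 29 tested muscle members 25 were higher in it, as given below. The member sums, 2518 and 2458 CPM, are on the scale without TMM and are not comparable with that count. Hybrid replicate 1 had less chorion RNA than hybrid replicate 2, while 18 of 28 muscle members were higher in it. The part of the germ cell and follicle cell changes in the muscle values was not tested.

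The isoform pattern showed which kind of muscle RNA the libraries contained. Among the muscle actins, Act57B (Dmel_CG10067, chromosome 2R, 20944021 to 20946431 of Release 6), the major actin of larval and visceral muscle, had 97.3 and 61.2 TPM in D. melanogaster and 181.5 and 149.4 TPM in hybrids. It took 93.9% and 93.3% of the TPM of the 4 muscle actins in D. melanogaster and 95.4% and 96.2% in hybrids. The second sheath-type actin, Act87E (Dmel_CG18290), stood at 6.28 and 4.13 TPM in D. melanogaster and 8.55 and 5.75 TPM in hybrids. Act57B was thus the dominant muscle actin in every library, and both genes were present in all 4.

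Act79B (Dmel_CG7478), the actin of tubular muscle, was read with 1 and 0 estimated counts in the D. melanogaster libraries and with 0 and 3 in those of hybrids. Act88F (Dmel_CG5178), the actin of flight muscle, was read with 0 and 5.72 counts in the D. melanogaster libraries and 4.0 and 0 in hybrid libraries. Both genes were at or near the floor of 3 counts, which corresponds to 0.154 to 0.220 CPM of the library total in these libraries, and no direction can be read from them. The coding sequences of the actin genes are nearly identical, so that the division of reads between paralogues, including a few reads of Act88F, is uncertain.

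The troponin C genes encode the calcium sensor of the thin filament. TpnC73F (Dmel_CG7930) was the most abundant in every library, with 14.6 and 10.1 TPM in D. melanogaster and 28.6 and 25.03 TPM in hybrids. TpnC47D (Dmel_CG9073), the other sheath-type gene, had 6.78 and 3.66 TPM in D. melanogaster and 4.08 and 5.02 TPM in hybrids, and the groups overlapped. TpnC41C (Dmel_CG2981), used in tubular muscle, was nearly absent, at 5 and 1 counts in the parental and 0 and 1 in the hybrid libraries. The share of TpnC73F in the TPM of the 4 troponin C genes was 52.8% and 54.5% in D. melanogaster and 87.5% and 82.9% in hybrids.

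TpnC4 (Dmel_CG12408, chromosome 2R, 5503437 to 5507866), the troponin C of stretch-activated flight muscle, departed from all other members. The D. melanogaster libraries had 83 and 50 counts of it, which are 6.15 and 4.74 TPM, and the hybrid libraries 0 and 1. In D. melanogaster it made up 22.2% and 25.6% of troponin C TPM, about as much as TpnC47D. The D. simulans libraries had 0 counts of it. Against a floor of 3 counts per hybrid library, its level in hybrids was at least 11.9-fold lower than the D. melanogaster mean of 4.32 CPM. No exon of another protein-coding gene overlaps it in the Ensembl annotation.

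The other flight muscle members did not share the level of TpnC4. Flightin (fln, Dmel_CG7445), a myosin-binding protein of the flight muscle thick filament, had 0 counts in both D. melanogaster libraries and 1 and 0 in the hybrids. Strn-Mlck (Dmel_CG44162), a large kinase of the titin family with a flight muscle isoform, had 0.943 and 1.08 TPM in D. melanogaster and 1.65 and 1.57 TPM in hybrids. Strn-Mlck counts are summed over the transcripts of the gene and do not show which isoform was present. TpnC4 was therefore found in D. melanogaster ovaries in which Act88F and fln, the most specific genes of flight muscle in the set, were at 5.72 counts or fewer.

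**Figure D2:**
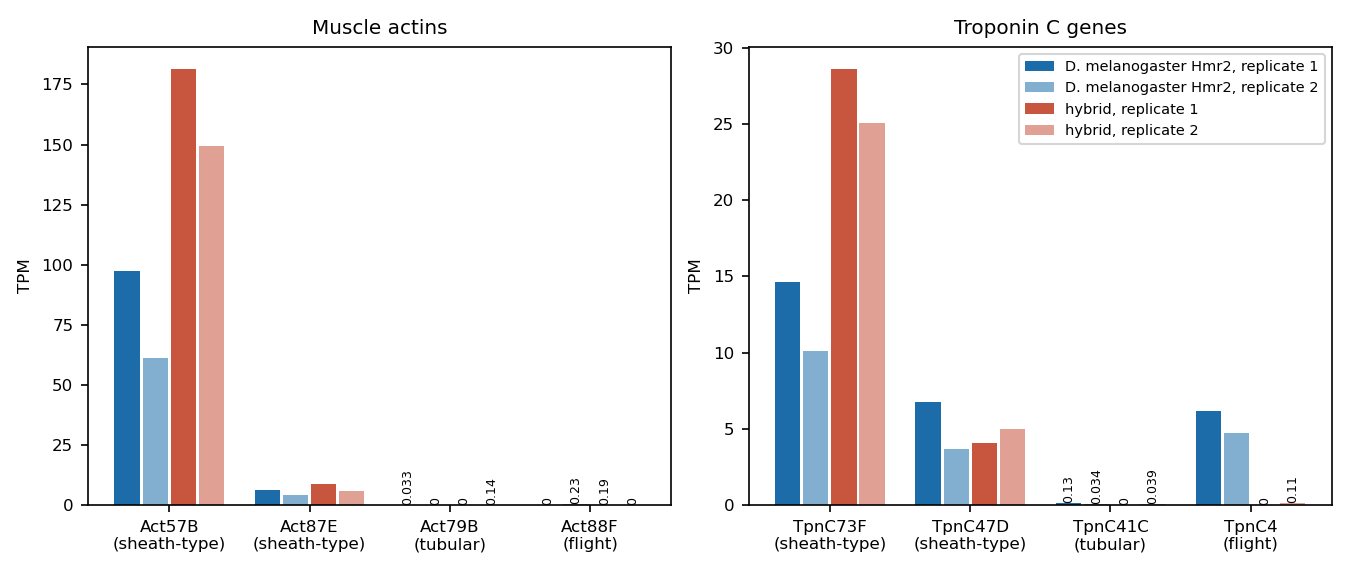
TPM of the 4 muscle actins and 4 troponin C genes, 1 bar per library, with the muscle class of each gene under its name and values under 0.5 TPM written out. Act57B and TpnC73F lead in every library, the tubular genes stay under 0.15 TPM, and TpnC4 reaches 6.15 TPM in D. melanogaster and 0.106 TPM in hybrids.

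In normalised read counts, which adjust for the unequal amounts of D. melanogaster RNA, Act57B had 191 and 125 CPM in D. melanogaster and 504 and 417 CPM in hybrids. The log2 fold change of Act57B was 1.55 (SE 0.24), and wrongly assigned reads amounted to 0.210%. TpnC73F had 15.2 and 10.98 CPM against 42.2 and 37.1 CPM, a log2 fold change of 1.59 (SE 0.22) with 0.124% wrongly assigned. For both genes the hybrid libraries were well above the parental ones. Act87E was lower in level but had the same order of libraries, with 11.2 and 7.60 CPM against 21.6 and 14.6 CPM and a log2 fold change of 0.94 (SE 0.30). For TpnC47D the log2 fold change was 0.33 (SE 0.40), within its error of 0.

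The thick filament members all stood higher in hybrids. Mlc2 (Dmel_CG2184), the regulatory light chain of muscle myosin, had 37.0 and 27.0 CPM in D. melanogaster and 181 and 133 CPM in hybrids. Its log2 fold change of 2.29 (SE 0.23) was the largest of the set, but 21.3% of its signal was wrongly assigned, with 196 and 393 counts in the D. simulans libraries. After the mean D. simulans CPM was subtracted from the hybrid mean, its log2 fold change was 1.95. That subtraction takes the full level of the D. simulans parent. It removes too much for an allele at an unchanged level per gene copy, since hybrids carry a single D. simulans copy, and too little for an allele several times higher in hybrids.

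Mhc (Dmel_CG17927), the only muscle myosin heavy chain gene of the fly, had 114 and 81.4 CPM in D. melanogaster and 298 and 322 CPM in hybrids. This is a log2 difference of 1.67 (SE 0.20), with 0.401% wrongly assigned. Mlc1 (Dmel_CG5596), the essential light chain, had 27.7 and 15.5 CPM against 58.6 and 48.8 CPM. Prm (Dmel_CG5939), paramyosin of the thick filament core, had 36.7 and 26.7 CPM against 83.5 and 76.1 CPM. Mf (Dmel_CG6803), myofilin, had 55.1 and 35.7 CPM against 123 and 96.1 CPM, with 14.0% wrongly assigned. The log2 fold changes of Mlc1, Prm and Mf were close to each other, at 1.30 (SE 0.28), 1.33 (SE 0.20) and 1.27 (SE 0.24). In these genes, too, no hybrid library fell within the parental range.

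The giant elastic proteins connect the filaments with the Z-disc, and their genes rank among the longest of the set. sls (Dmel_CG1915), which encodes kettin and Sallimus, had 42.3 and 40.0 CPM in D. melanogaster and 144 and 169 CPM in hybrids. The log2 difference was 1.93 (SE 0.17), with 0.915% wrongly assigned and a narrow gap between replicates. bt (Dmel_CG32019), projectin, lies on chromosome 4 and had 109 and 54.3 CPM in D. melanogaster and 240 and 304 CPM in hybrids. The 2 D. melanogaster libraries thus differed about as much as the groups' nearest libraries, and the log2 fold change was 1.73 (SE 0.32). Strn-Mlck had 12.2 and 9.37 CPM against 22.8 and 26.3 CPM, a log2 fold change of 1.18 (SE 0.23), with 8.01% wrongly assigned.

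On the thin filament, wupA (Dmel_CG7178), troponin I, had 42.5 and 27.6 CPM in D. melanogaster and 147 and 110 CPM in hybrids. Its log2 fold change was 1.87 (SE 0.25), with 16.4% wrongly assigned, and was 1.61 after the D. simulans level was subtracted. up (Dmel_CG7107), troponin T, is single in the fly like troponin I, and had 58.0 and 40.5 CPM against 146 and 138 CPM. Tm2 (Dmel_CG4843), a muscle tropomyosin, had 33.2 and 20.7 CPM against 85.5 and 74.8 CPM. The troponin and Tm2 genes thus lay within a log2 range of 1.53 (up, SE 0.20) to 1.87, with Tm2 at 1.57 (SE 0.24).

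Tm1 (Dmel_CG4898), the neighbour of Tm2 on chromosome 3R, makes muscle and cytoplasmic tropomyosins and was the member with the highest mean TPM. Its level was 167.2 and 166.9 TPM in D. melanogaster and 180.9 and 172.2 TPM in hybrids. In normalised counts it had 393 and 417 CPM against 592 and 572 CPM. Its log2 fold change of 0.52 (SE 0.17) was less than that of Tm2, and 12.1% of the signal was wrongly assigned. After subtraction of the D. simulans level the log2 fold change of Tm1 was 0.27.

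The Z-disc and LIM domain members were divided. Zasp66 (Dmel_CG6416), a PDZ protein of the Z-disc, had 29.2 and 20.7 CPM in D. melanogaster and 67.9 and 50.1 CPM in hybrids, which is 1.24 on the log2 scale (SE 0.23). Zasp52 (Dmel_CG30084), a Z-disc protein that is also used at integrin junctions, had 54.8 and 42.0 CPM against 60.1 and 46.2 CPM. Its groups overlapped, at a log2 fold change of 0.13 (SE 0.21). Actn (Dmel_CG4376), alpha-actinin, the actin crosslinker of Z-discs and of non-muscle cells, had 199 and 217 CPM against 196 and 200 CPM and a log2 fold change of -0.07 (SE 0.16). Exons of other genes, above all east on the opposite strand, overlap 20.7% of the exon bases of Actn, and no use of strand is stated for the read assignment.

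Of the muscle LIM proteins, Mlp84B (Dmel_CG1019) had 18.03 and 11.4 CPM in D. melanogaster and 25.8 and 25.4 CPM in hybrids, which is 0.80 on the log2 scale (SE 0.26) with 1.21% wrongly assigned. Mlp60A had 18.9 and 8.98 CPM against 35.5 and 36.5 CPM and a log2 fold change of 1.36 (SE 0.32). Its wrongly assigned signal was 40.6%, the highest among tested members, and after subtraction of the D. simulans level its log2 fold change was 0.60. Mlp60A was the only one of the 16 called members that fell under 2-fold in this way.

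Both calcium-handling members serve the sarcoplasmic reticulum. RyR (Dmel_CG10844), the ryanodine receptor that releases calcium, had 9.71 and 4.45 CPM in D. melanogaster and 19.4 and 23.1 CPM in hybrids. The difference of RyR was 1.57 on the log2 scale (SE 0.36), with 0.972% wrongly assigned. SERCA (Dmel_CG3725), the pump that returns calcium, acts in most cells and had 127 and 119 TPM in D. melanogaster and 92.3 and 101 TPM in hybrids. In normalised counts it had 583 and 572 CPM against 620 and 673 CPM, a log2 fold change of 0.16 (SE 0.18). SERCA had 16.0% of wrongly assigned signal, 16.0% of its exon bases overlap exons of other genes (above all CG2812 on the opposite strand), and its log2 fold change was -0.29 after the D. simulans level was subtracted. Its direction is therefore uncertain.

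The remaining structural members were less changed. Argk1 (Dmel_CG32031), arginine kinase, which buffers ATP in muscle and other tissues, had 109 and 134 TPM in D. melanogaster and 112 and 107 TPM in hybrids. Its normalised counts were 239 and 311 CPM against 349 and 328 CPM, a log2 fold change of 0.30 (SE 0.19). Chd64 (Dmel_CG14996), a calponin-family protein that also acts in hormone-dependent transcription, had 130 and 110 TPM against 75.5 and 69.5 TPM. Its normalised counts were 207 and 184 CPM against 172 and 159 CPM, a log2 fold change of -0.24 (SE 0.16), so that the difference, although it separated the groups, was small.

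Mp20 (Dmel_CG4696), a calponin-like muscle protein, had 34.8 and 17.7 CPM in D. melanogaster and 40.0 and 37.1 CPM in hybrids, with a log2 fold change of 0.55 (SE 0.30). The gap between the D. melanogaster replicates was wider than the gap to the hybrids. Msp300 (Dmel_CG42768), a giant nesprin that anchors nuclei in muscle and in germ cells, had 95.8 and 72.6 CPM against 107 and 125 CPM. The log2 difference of Msp300 was 0.46 (SE 0.19), with 17.4% wrongly assigned, and 0.07 after subtraction. Mef2 (Dmel_CG1429), the transcription factor of muscle differentiation, which is also active in other tissues, had 68.4 and 95.1 CPM against 139 and 133 CPM and a log2 fold change of 0.74 (SE 0.19).

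**Figure D3:**
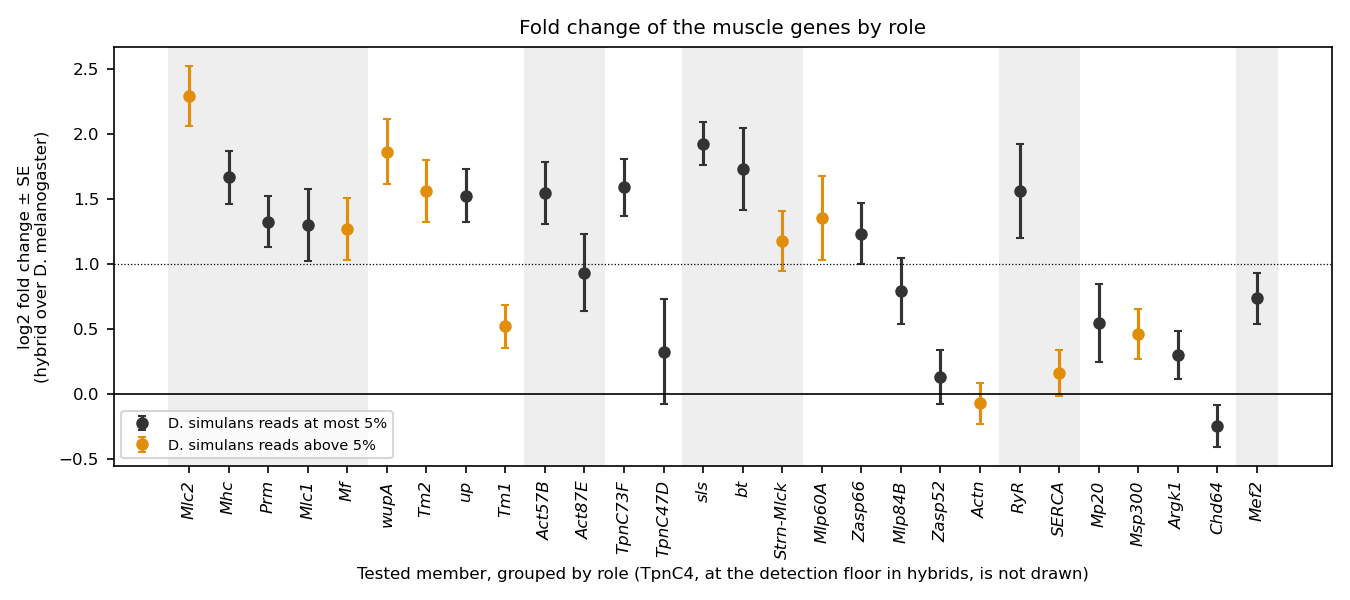
The log2 fold change of hybrid over D. melanogaster for 28 tested members by role, with error bars of 1 SE from the edgeR fit. Orange marks the members with over 5% wrongly assigned reads, and the dotted line marks a 2-fold difference. Thick filament and titin-like genes lie above it, while Chd64 (-0.24) and Actn (-0.07) lie under 0.

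The members listed as also used outside muscle, Chd64, Argk1, Msp300, SERCA, Tm1, Actn and Mef2, had log2 fold changes from -0.24 to 0.74. Zasp52, TpnC47D and Mp20 lay in the same range and TpnC4 far under it, so the order does not divide the set by use. Without these 7 genes the median of the remaining 22 tested members was 1.34. When the 10 tested members with over 5% of wrongly assigned signal were left out, the median of the other 19 was 1.24, and 10 of these 19 were called higher. Per length, Tm1, Act57B, Argk1, SERCA and Chd64 had the highest mean TPM of the members.

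The D. melanogaster replicates differed in most single muscle members. The member sums of 2518 and 2458 CPM lack the TMM scaling and cannot be set against this. In replicate 1, 25 of the 29 tested members had more CPM than in replicate 2, with a median log2 ratio of 0.48 over members and 0.02 over all tested genes. The ratio ranged from -0.48 for Mef2 to 1.12 for RyR. Between the hybrid replicates the median ratio was 0.08 over 28 members with more than 3 counts, and 18 of these 28 were higher in replicate 1. The median log2 fold change of the members ranged from 0.96 without D. melanogaster replicate 2 to 1.499 without D. melanogaster replicate 1.

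The D. simulans alleles of members were not used to choose the set, and they could be tested between hybrids and D. simulans, although the hybrid libraries are the same. The D. simulans allele was identified for 5 members, by matching the 6 counts of a row to a named pair in the part of the study's orthologue table that was available. For the other tested members the allele was not analysed here. Over the 8207 D. simulans genes tested, 5.18% were called higher and 9.75% lower in hybrids, by edgeR's quasi-likelihood test with Benjamini-Hochberg adjustment. Of the 5 alleles, 3 were called higher and none lower. Because only these 5 were identified, the count says nothing of the whole set.

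The D. simulans allele of Act57B had 122 and 144 CPM in D. simulans and 363 and 358 CPM in hybrids. The difference of 1.44 on the log2 scale (SE 0.10), or 2.71-fold, passed the test at an edgeR adjusted p of 9.7e-05, and both hybrid libraries were more than 2-fold above both parental ones. The allele of Mlp84B had 8.11 and 9.18 CPM in D. simulans and 25.5 and 22.4 CPM in hybrids. This is a log2 fold change of 1.46 (SE 0.16) with an edgeR adjusted p of 0.00056. The allele of RyR had 6.55 and 10.2 CPM in D. simulans and 18.1 and 22.4 CPM in hybrids, which is 1.25 on the log2 scale (SE 0.24) with an edgeR adjusted p of 0.0054. Without D. simulans replicate 1 the RyR value was 0.96, under the minimum fold. When counts were scaled to library totals, the 3 alleles had log2 fold changes of 0.70 (Act57B), 0.73 (Mlp84B) and 0.51 (RyR), under the minimum fold, while the median of all D. simulans genes shifted by -0.72.

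The other alleles changed less. Mef2 had 136 and 132 CPM in D. simulans and 158 and 166 CPM in hybrids, which is 0.27 on the log2 scale (SE 0.07) with an edgeR adjusted p of 0.020. Chd64 had 201 and 214 CPM in D. simulans and 171 and 157 CPM in hybrids, which is -0.34 on the log2 scale (SE 0.08) with an edgeR adjusted p of 0.014. Neither difference reached 2-fold, and both depended on single libraries. The adjusted p of Mef2 was 0.056 and 0.13 without hybrid replicate 1 or 2 and 0.073 without D. simulans replicate 2, and that of Chd64 was 0.11 without hybrid replicate 2 and 0.051 without D. simulans replicate 2. With library totals the values were -0.47 for Mef2, a change of sign, and -1.07 for Chd64. Beside these stand the values of the D. melanogaster alleles given above, which were 1.55 for Act57B, 0.80 for Mlp84B, 1.57 for RyR, 0.74 for Mef2 and -0.24 for Chd64. The reads of D. melanogaster libraries assigned to these D. simulans alleles amounted to 2.46% for Mef2 and at most 0.260% for the other 4.

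**Figure D4:**
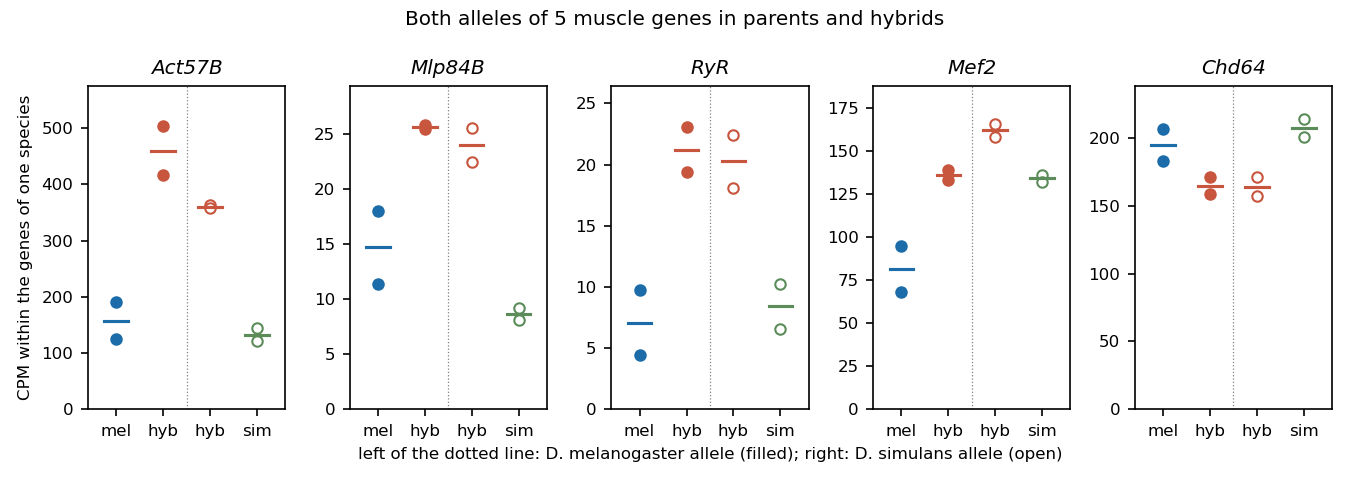
CPM of the D. melanogaster allele (filled, left of the dotted line) and of the D. simulans allele (open, right) of 5 members, each point a library and each bar the mean of 2 libraries, with CPM computed within the genes of 1 species. For Act57B, Mlp84B, RyR and Mef2 both hybrid libraries lie above both libraries of the parent on each side, and for Chd64 below them.

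Within the hybrids, the D. melanogaster share of the reads of these genes lay between 42.1% and 53.5%. The D. melanogaster allele of Act57B gave 53.5% (Wilson 95% interval 52.4 to 54.6) and 51.7% (50.5 to 52.9) of the counts of the pair in hybrid replicates 1 and 2. For RyR the share was 47.0% (41.7 to 52.4) and 48.6% (43.8 to 53.5), and for Mlp84B it was 45.6% (41.1 to 50.2) and 51.1% (46.3 to 55.8). For Chd64 it was 45.4% (43.6 to 47.1) and 48.1% (46.3 to 50.0). For Mef2 it was 42.1% (40.3 to 44.0) and 42.5% (40.6 to 44.4). The intervals of Mef2 and Chd64 thus lay below 50% and those of Act57B above it. The upper limit of Chd64 in replicate 2 was 49.99%. Over all identified pairs with at least 100 counts, the median share of the D. melanogaster allele was 45.0% in replicate 1 (1679 pairs) and 47.8% in replicate 2 (1667 pairs). Intervals cover counting error only.

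Genes outside the set that also serve muscle were counted by list in the same comparison. Their lists were also drawn up with earlier results known, so their adjusted p-values are not independent evidence for a list. Of 9 other sarcomere genes 7 were tested, and 1 was called higher and none lower, with a median log2 fold change of 0.41. That gene was Unc-89, which encodes obscurin of the M-line, with 14.5 and 5.53 CPM in D. melanogaster and 28.1 and 29.1 CPM in hybrids. Its edgeR adjusted p was 0.036 for a log2 fold change of 1.49 (SE 0.40). It fell to 0.95, under the minimum fold, without D. melanogaster replicate 2, and with upper-quartile scaling its adjusted p was 0.055. In this list the D. simulans allele was identified for tn and tmod. That of tn was called higher (log2 fold change 1.06, SE 0.21, edgeR adjusted p 0.0065), with 8.76% wrongly assigned. That of tmod was not called (-0.80, SE 0.10).

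Of 10 genes of excitation and calcium, 9 were tested. Of these, 3 were called higher and 0 lower, with a median log2 fold change of 0.37. The largest decrease was that of Ca-beta, with 9.30 and 9.91 CPM in D. melanogaster and 5.09 and 5.42 CPM in hybrids. At -0.87 on the log2 scale (SE 0.28) and an edgeR adjusted p of 0.059, it was not called. jp encodes junctophilin, which holds the sarcoplasmic reticulum to the plasma membrane, and had 7.51 and 7.45 CPM in D. melanogaster and 20.2 and 17.6 CPM in hybrids. Higher by 1.33 on the log2 scale (SE 0.23), it passed with an edgeR adjusted p of 0.0092. Ca-alpha1D, the voltage-gated calcium channel of muscle, had 3.18 and 1.61 CPM against 8.69 and 9.07 CPM, a log2 fold change of 1.87 (SE 0.39) with an edgeR adjusted p of 0.018. slo, a calcium-activated potassium channel, had 12 and 5 counts against 13.2 and 24.2 counts and an edgeR adjusted p of 0.035, which was 0.080 with DESeq2. Calls of these low genes rest on few reads. For slo, stj, Itpr and Orai the D. simulans allele was identified. That of slo was called higher (log2 fold change 1.70, SE 0.41, edgeR adjusted p 0.012), again on few reads. That of stj was called lower (-2.52, SE 0.22, edgeR adjusted p 0.00024), whereas its D. melanogaster allele was too low to be tested. Those of Itpr (-0.39, SE 0.12) and Orai (0.16, SE 0.07) were not called.

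The attachment genes went both ways, with 2 of 19 tested genes called higher, 3 lower and a median log2 fold change of 0.00. kon, an adhesion protein of muscle ends, had 2.48 and 2.23 CPM in D. melanogaster and 5.09 and 8.36 CPM in hybrids, with an edgeR adjusted p of 0.031, and 0.33 without hybrid replicate 2. Scgdelta, of the sarcoglycan complex, was the other, but 51.4% of its signal was wrongly assigned, and its adjusted p was 0.053 without D. melanogaster replicate 1 and 0.086 and 0.35 without hybrid replicate 1 or 2. The 3 laminin genes LanA, LanB1 and LanB2, of the basement membrane, were 5.06-fold, 2.65-fold and 3.71-fold lower, with edgeR adjusted p-values of 0.0015, 0.0051 and 0.0018. The D. simulans allele of LanA was lower as well, at 194 and 268 CPM in D. simulans and 53.5 and 63.2 CPM in hybrids. That of kon was called higher (log2 fold change 2.00, SE 0.38, edgeR adjusted p 0.0052). Those of mys (-0.23, SE 0.08) and Ilk (0.21, SE 0.08) were not called.

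Cytoplasmic actomyosin genes work in every cell. Of 10 tested none was called higher, where 2.99% of all genes were, their median log2 fold change was 0.13, and Act42A, a cytoplasmic actin, was 3.73-fold lower with an edgeR adjusted p of 0.0015. Act42A had 494 and 384 CPM in D. melanogaster and 109 and 127 CPM in hybrids. Its D. simulans allele had 403 and 409 CPM in D. simulans and 263 and 301 CPM in hybrids, a log2 difference of -0.52 (SE 0.09) that was not called. Of 17 further muscle regulators, 11 had at most 3 counts in all 4 libraries, among them twi, nau, bin, bap, Hand and tin. Only 5 were tested, and hth, a homeodomain cofactor, was called higher at 5.96 and 4.95 CPM against 1.502 and 1.92 CPM, with 34.02% of its signal wrongly assigned. The adjusted p of hth was 0.12 without hybrid replicate 1 and 0.054 without hybrid replicate 2.

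Markers of other cell types dissected with an ovary were mostly low. Of the gut markers 3 of 4 had at most 3 counts in all 4 libraries, and their sum ranged from 0.318 to 2.02 CPM. The neuron and glia markers summed to 60.2 and 46.2 CPM in D. melanogaster and 36.5 and 27.3 in hybrids, with VGlut at or under 3 counts. Most of this was Syt1, with 1070 and 548 counts against 222 and 190. Of the 3 tested, elav and Tdc2 were not called, at log2 fold changes of 0.34 (SE 0.44) and 0.55 (SE 0.50). Syt1 was called lower, with 24.4% wrongly assigned, but changed by -0.76 on the log2 scale without D. melanogaster replicate 1 and had an adjusted p of 0.11 without hybrid replicate 2. The fat body markers summed to 74.3 and 88.5 CPM against 97.9 and 96.6 CPM, with none called and Lsp2 at or under 3 counts. Most of this was Mtp, at a log2 fold change of 0.25 (SE 0.15). apolpp went the other way, at -1.15 (SE 0.51).

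Some markers of cells around the ovary were higher in hybrids along with the muscle members. The haemocyte genes Hml, NimC1 and eater were called higher, with Hml at 2.77 and 2.15 CPM in D. melanogaster and 23.6 and 29.7 CPM in hybrids. The call of eater was lost with DESeq2 (adjusted p 0.068), without D. melanogaster replicate 2 (0.063) and without hybrid replicate 2 (0.10). He was at or under 3 counts. The 5 haemocyte markers summed to 230 and 262 CPM in D. melanogaster and 221 and 200 CPM in hybrids, but most of this was crq, a scavenger receptor, and without it the sums were 3.39 and 2.49 CPM against 30.4 and 35.2 CPM. crq itself went the other way, with 227 and 259 CPM against 191 and 164 on the scale of the sums. Its log2 fold change was -0.60 (SE 0.16), under the minimum fold, with an edgeR adjusted p of 0.038. The tracheal gene trh was called higher, but its adjusted p was 0.053 with DESeq2, 0.057 without D. melanogaster replicate 2 and 0.064 without hybrid replicate 1. The 2 tracheal markers summed to 1.06 and 0.528 CPM against 3.38 and 4.003 CPM. Of 7 markers of oviducts and their glands, the octopamine receptor genes Oamb and Octbeta2R were called higher. Hr39 and Mmp2 were not called, at log2 fold changes of 0.35 (SE 0.21) and -0.09 (SE 0.19). Oamb had 9.996 and 8.37 CPM in D. melanogaster and 19.6 and 21.1 CPM in hybrids, which is 1.14 on the log2 scale (SE 0.22). Its call was lost without D. melanogaster replicate 2 (0.99 on the log2 scale) and without hybrid replicate 2 (adjusted p 0.084). Octbeta2R, with 13.1% wrongly assigned, had 6.53 and 5.38 CPM against 17.3 and 22.6 CPM. Send1, a gene of the spermathecae, was read 40 and 18 times in the parental libraries and never in hybrids, a level at least 5.09-fold lower, and lz and Send2 were at or under 3 counts. The sum of these 7 markers was 104 and 127 CPM against 172 and 169 CPM, and most of this was Hr39 and Mmp2. The part of such tissue in the muscle values was not tested.

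**Figure D5:**
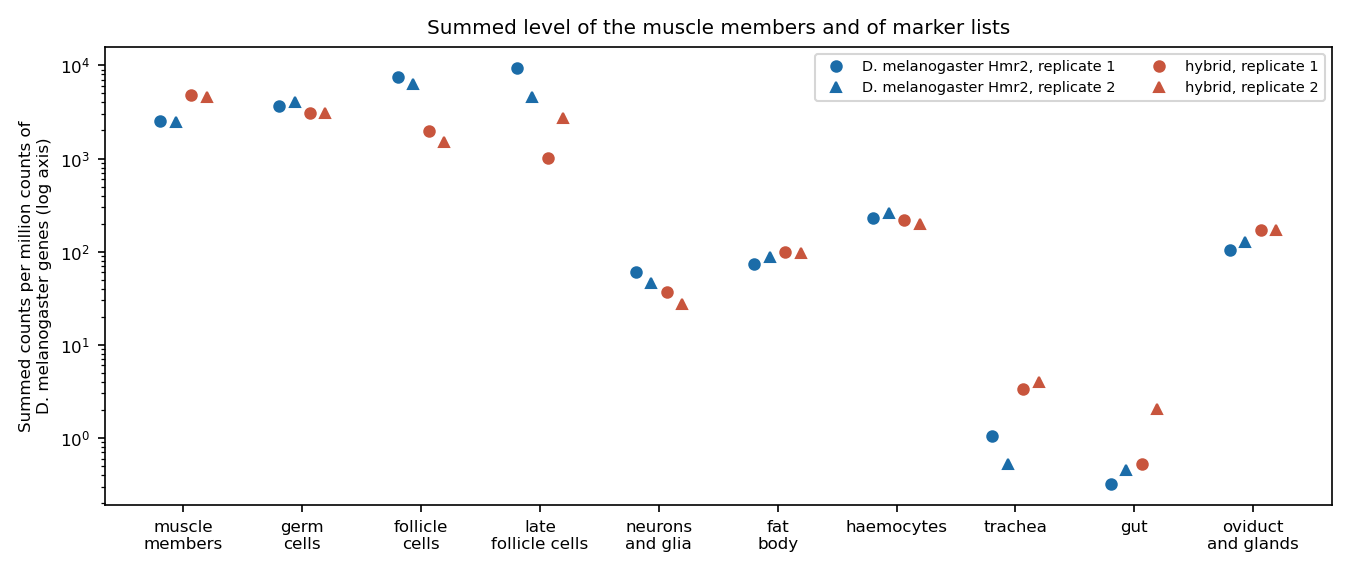
Summed CPM within the D. melanogaster genes (log axis) for the muscle members and 9 marker lists, 1 point per library. The muscle members are at 2458 to 2518 in D. melanogaster and 4558 to 4809 in hybrids, the follicle cell lists are lower in hybrids, and the gut and trachea lists are under 5 in every library.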

How the data were processed

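Ovarian polyA RNA-seq libraries of D. melanogaster Hmr2, D. simulans w501 and their F1 hybrids were analysed, with 2 libraries in each group, as their titles give it. Reads with a quality above 30 were assigned by the authors with kallisto 0.50.0 to RefSeq transcripts of the 2 species together and summed to genes with tximport. Strand use is not given in the sources used here. The deposited estimated counts need not be whole and were rounded. The deposited TPM values refer to every transcript of either species, and unlisted transcripts took 23.6% to 46.1% of them, so TPM served for the order of genes within a library and CPM for comparisons. A further 6 columns that name no sample were left aside. The header of the count column of D. melanogaster replicate 2 repeats a TPM name and was identified from its values.

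Hybrids were compared with each parent over that parent's genes in R 4.3.3 with edgeR 4.0.16 (filterByExpr with a minimum of 10 counts, TMM, glmQLFit and glmQLFTest, two-sided). The standard error is the log2 fold change divided by the root of the F statistic. The edgeR step was tested on simulated data. DESeq2 1.42.0, other filters and scalings, a replicate block and left-out libraries were alternatives. Biological variation was 16.2% in D. melanogaster genes and 9.51% in D. simulans genes. Replicates differed beyond sampling noise and were kept apart. Floors are 3 counts, and intervals cover counting error only. D. simulans alleles were named where all 6 counts matched a single row of the supplementary orthologue table within 0.001 counts, which gave 1993 pairs. That table was held only in part and served for names alone. Symbols and positions come from RefSeq Release 6 and exons from the Ensembl annotation of that assembly, and all members matched.

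Members and lists were chosen with earlier results of these data known. Values per library are given for all sheath-type, tubular and flight members, the 5 highest in mean TPM, the 5 largest and 3 smallest fold changes, and members with a negative fold change. Genes outside the set are counted by list and called ones named, up to 6 per list. Promoter sequences were not analysed here.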

Additional observations from a re-analysis of the deposited data

Results flagged for a closer look

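The D. simulans libraries hold no D. melanogaster RNA and did not enter the comparison of D. melanogaster genes, yet 20 members had more than 3 counts in both of them. Relative to the higher of the means in D. melanogaster and in hybrids, this signal was 40.6% for Mlp60A, 21.3% for Mlc2, 17.4% for Msp300, 16.4% for wupA, 16.0% for SERCA, 14.0% for Mf and 12.1% for Tm1. It was 8.01% for Strn-Mlck, 7.26% for Actn, 6.58% for Tm2, 4.65% for Act87E, 2.19% for Argk1 and 1.74% for Zasp66. For the other 7 it was 0.915% (sls), 0.832% (Mef2), 0.785% (up), 0.725% (Zasp52), 0.465% (Chd64), 0.401% (Mhc) and 0.219% (bt). TpnC4 had 0 counts in both.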

How the results depend on the processing

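The 16 members called higher were the same genes with DESeq2, without a filter, with at least 10 counts in every library, with upper-quartile scaling and with the replicate number as a block, and 17 had an adjusted p under 0.05 without a minimum fold. Over the settings without 1 library each, the number called ranged from 11 to 19, and 11 members were called in every one of these. Without D. melanogaster replicate 2, Mlc1, Mf, Strn-Mlck, Zasp66 and Mlp60A were lost, and without hybrid replicate 2, Strn-Mlck. The median log2 fold change ranged from 0.96 to 1.499 over these settings. It was 1.054 after the D. simulans level was subtracted from the hybrid mean, a setting chosen after seeing the data. Scaled to library totals over both species, the median was 0.32, 2 members were called higher, and 3683 D. melanogaster and 2743 D. simulans genes were called, against 1086 and 1225. From log2 ratios of mean TPM + 1 the median was 0.39, beside -0.41 over all tested genes. The number of D. melanogaster genes called ranged from 742 (without hybrid replicate 2) to 1637 (without D. melanogaster replicate 2), and that of D. simulans genes from 958 to 1202. Deviations of same-numbered libraries correlated at -0.00026 in D. melanogaster genes and 0.04 in D. simulans genes. The replicate block gave 1199 and 1232 calls and a member median of 1.24. Whether the replicate numbers mark shared crosses or days is not stated, and with 2 libraries per group these values cannot settle it. Higher calls were 22.6% of all calls in D. melanogaster genes and 2.14% with library totals, and 34.7% and 8.64% in D. simulans genes. The number of libraries, 2 per group, limits the precision of every fold change, and for Act79B, Act88F, TpnC41C and fln a change was not detectable at this depth.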
